A study of Mus musculus with 12 samples.

Results

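The 10 genes described here carry out antigen presentation by major histocompatibility complex (MHC) molecules. They were taken by name from the 24054 genes of each library's table. The 6 class I genes were H2-K1, H2-D1, B2m, Tap1, Psmb8 and Psmb9, and the 4 class II genes were H2-Aa, H2-Ab1, H2-Eb1 and Cd74. RNA was sequenced from mouse fetal liver at E13.5 in 12 libraries, 3 for each of 4 groups. Long-term haematopoietic stem cells (LT-HSC) were sorted as LSK CD150+CD48- and multipotent progenitors (MPP) as LSK CD150-CD48+, where LSK stands for lineage-negative cells positive for Sca-1 and Kit. Mutants were Setdb1 p/p;vav-cre, and controls carried Setdb1 +/p, so every library had at least a single copy of the p allele, which the labels do not define. LT-HSC control 1 and MPP controls 1 and 2 had no Cre transgene, whereas LT-HSC controls 2 and 3, MPP control 3 and every mutant carried vav-cre. The vav promoter drives Cre in blood cells, and Setdb1 encodes a histone H3 lysine methyltransferase that represses genes and retroelements. Whether libraries of a group stem from different embryos is not stated in the labels, and p-values here reflect library-to-library spread only, which may be technical.

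Class I molecules display peptides made in the cytosol. The proteasome cuts proteins, with Psmb8 and Psmb9 as inducible catalytic subunits of its immune form, Tap1 with Tap2 pumps the peptides into the endoplasmic reticulum, and the heavy chains H2-K1 and H2-D1 present them together with the light chain B2m. Class II molecules are pairs of an alpha and a beta chain (H2-Aa with H2-Ab1, and the beta chain H2-Eb1 of the H2-E pair) that are guided by the invariant chain Cd74 and present peptides from endosomes. Most nucleated cells express class I genes, while class II genes are mainly expressed by dendritic cells, B cells and macrophages. Nlrc5 is the main co-activator of class I promoters and Ciita that of class II promoters.

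Of the 10 genes, 8 lie on chromosome 17 in GRCm38.p6, in order from Psmb9 (chr17:34182030-34187330), Tap1 (chr17:34187556-34197225) and Psmb8 (chr17:34198195-34201454) to H2-Ab1 (chr17:34263227-34269418), H2-Aa (chr17:34282744-34287823) and H2-Eb1 (chr17:34305867-34316674), with H2-K1 (chr17:33996012-34000619) on one side and H2-D1 (chr17:35263094-35267497) on the other. B2m lies at chr2:122147687-122153082, and Cd74 on another chromosome. Psmb9 and Tap1 start back to back.

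RefSeq's promoter table for GRCm38.p6 held 8 of the 10 genes, and not H2-Ab1 or Cd74. The last 180 bases before the start given there are shown for 5 genes, the class I heavy and light chains and the 2 class II chains found, because these are the chains that make up the presenting molecules. For H2-K1 the promoter table held 2 starts, and the window before the first is shown. That window lies inside the H2-K1 span given above, not upstream of its outer end. Capitals mark matches, on either strand, to GGGATTCCC (enhancer A), the core of the interferon-stimulated response element (GAAA, any 2 bases, GAAA), AACNGATG (the core of the class II X box) and CCAAT (read as ATTGG on the other strand).
H2-K1 (chr17:34000348-34000527, minus strand): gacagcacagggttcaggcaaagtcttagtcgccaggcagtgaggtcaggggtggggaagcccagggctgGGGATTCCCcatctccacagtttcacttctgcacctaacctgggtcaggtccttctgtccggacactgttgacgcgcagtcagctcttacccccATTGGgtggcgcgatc
H2-D1 (chr17:35262914-35263093, plus strand): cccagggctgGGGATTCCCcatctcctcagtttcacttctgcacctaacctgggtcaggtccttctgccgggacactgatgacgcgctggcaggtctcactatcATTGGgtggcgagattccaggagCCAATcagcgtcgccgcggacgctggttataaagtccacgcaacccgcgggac
B2m (chr2:122147507-122147686, plus strand): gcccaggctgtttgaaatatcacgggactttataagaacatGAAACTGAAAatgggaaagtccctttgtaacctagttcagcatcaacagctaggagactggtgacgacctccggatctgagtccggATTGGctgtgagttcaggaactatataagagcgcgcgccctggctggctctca
H2-Aa (chr17:34287824-34288003, minus strand): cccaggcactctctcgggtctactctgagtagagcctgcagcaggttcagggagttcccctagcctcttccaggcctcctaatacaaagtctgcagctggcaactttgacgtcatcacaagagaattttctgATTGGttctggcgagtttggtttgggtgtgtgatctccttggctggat
H2-Eb1 (chr17:34305687-34305866, plus strand): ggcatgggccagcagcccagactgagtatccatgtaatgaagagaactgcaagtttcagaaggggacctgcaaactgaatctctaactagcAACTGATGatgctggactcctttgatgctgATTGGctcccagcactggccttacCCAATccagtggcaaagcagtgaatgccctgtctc
Enhancer A stood in H2-K1 and H2-D1, whose sequences were identical at 89 of 100 bases counted from it, and in 0.301% of 32851 promoters searched over 250 bases. The response element core stood in B2m (2.98% of promoters), the X box core in H2-Eb1 (1.98%), and CCAAT in all 5 sequences shown (33.8%). These matches are descriptions of the letters and not shown to be sites.

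Total expected counts ran from 10119416 to 14113198 per library. Levels are given as CPM, the count relative to library size scaled by edgeR's TMM factors over the 12 libraries, or as the deposited TPM, which also divides by transcript length, where genes are compared with each other. Setdb1 itself, counted over the whole gene, overlapped between genotypes. LT-HSC controls held 73.42 to 107.9 CPM of it and LT-HSC mutants 66.3 to 80.11, while MPP controls held 87.9 to 141.3 and their mutants 86.55 to 116.5. Of the 5 genes listed as sorting markers, among which Ptprc is in neither gate as stated, the pair that defines the 2 gates differed between cell types. Slamf1, which encodes CD150, was 34.57 to 41.49 CPM in LT-HSC and 1.085 to 2.41 in MPP, and Cd48 was 10.6 to 30.61 in LT-HSC and 149.2 to 260.9 in MPP. Kit was 819.2 to 1087 CPM in all libraries. Among mutants, Ly6a was also called lower in MPP (13.66 to 16.85 CPM) than in LT-HSC (24.12 to 94.25). Between genotypes, 0 of the 5 were called in LT-HSC, where 0.42% of all genes tested were called. In MPP mutants 3 fell, where 18.5% of all genes tested were called lower. Those that fell were Ly6a, which encodes Sca-1, by 1.07 (log2, edgeR adjusted p = 0.000339), Ptprc by 0.59 (0.00334) and Cd48 by 0.44 (0.0148). These are bulk libraries, in which fewer cells of a type and less RNA per cell cannot be told apart.

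By TPM, B2m was the highest of the 10 transcripts and H2-Eb1 the lowest in each of the 4 groups. In LT-HSC controls B2m was highest (2151 ± 305 TPM, SD, n = 3), then H2-K1 (854 ± 169) and H2-D1 (805 ± 125), which did not differ beyond their spread. Psmb8 (268 ± 12.1), Psmb9 (169 ± 19.3) and Tap1 (57.5 ± 14.8 TPM) followed. Below them came Cd74 (24.1 ± 13 TPM), H2-Ab1 (5.07 ± 3.07), H2-Aa (3.34 ± 2.96) and H2-Eb1 (0.847 ± 0.80). The ranges of H2-Ab1 and H2-Aa overlapped, but H2-Ab1 was above H2-Aa in every LT-HSC control. In MPP controls B2m led again (1629 ± 217 TPM), but Psmb8 (377 ± 33.7) stood next. H2-D1 (340 ± 40.9) and H2-K1 (307 ± 29.7) followed. The range of H2-D1 overlapped those of Psmb8 and H2-K1. Within every MPP control, however, Psmb8 was above H2-D1 and H2-D1 above H2-K1. There Cd74 (82.9 ± 24.2 TPM) was above Tap1 (39.8 ± 6.09). In MPP mutants Cd74 was at 10.0 ± 1.7 TPM, below H2-Ab1 (13.7 ± 1.72), and H2-Aa was at 0.62 ± 0.33.

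**Figure D1:**
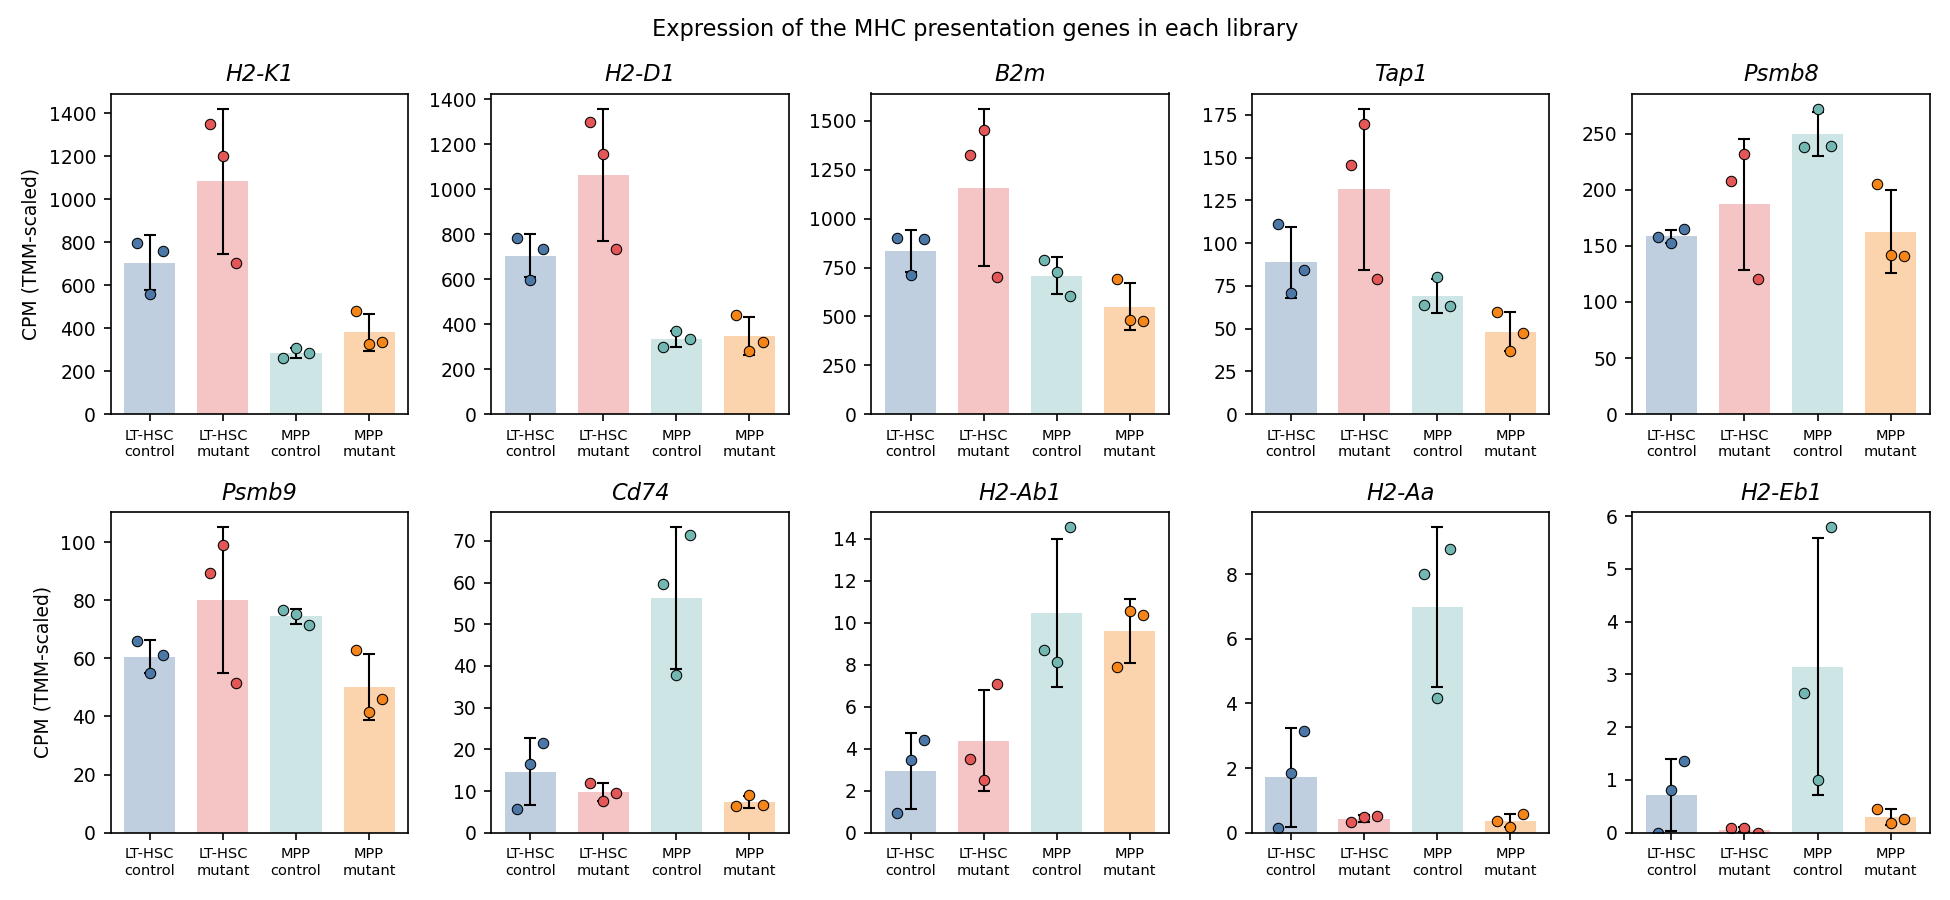
Expression of the 10 genes in each library, in TMM-scaled CPM on a linear axis from 0, with bars for group means, error bars for 1 SD and points for the 3 libraries of each group. The class I genes were above every LT-HSC control in LT-HSC mutants 1 and 2 but not in mutant 3, and Psmb8 was higher still in MPP controls. Cd74, H2-Aa and H2-Eb1 had their highest group means in MPP controls and were low in MPP mutants.

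In MPP, most class II transcripts were many times lower in Setdb1 mutants than in controls, and class I transcripts changed less and in both directions. All 10 genes passed the low-count filter, 6 fell, 1 rose and 3 were not called. Among all 12392 genes tested, 18.5% were called lower and 16.5% higher. The median log2 fold change was -3.17 for the 4 class II genes and -0.46 for the 6 class I genes, against -0.01 for all genes tested. Groups did not overlap for 7 of the 10 genes, 1 higher and 6 lower, against 25.4% of all genes higher and 25% lower.

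H2-Aa, the class II alpha chain, was 8.006, 4.158 and 8.765 CPM in the 3 MPP controls and 0.3664, 0.1808 and 0.5901 in the mutants. Every mutant was below every control. It fell by 4.16 on the log2 scale (SE 0.431, edgeR adjusted p = 4.26e-05), or 17.9-fold, on counts of 4, 2 and 7 in the mutants.

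Cd74, the invariant chain (chr18:60803849-60812652), was 59.54, 37.84 and 71.36 CPM in controls and 6.411, 8.95 and 6.575 in mutants. The groups did not overlap. It fell by 2.96 (log2, SE 0.232, edgeR adjusted p = 7.49e-06), or 7.77-fold.

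H2-Eb1, the beta chain of the H2-E pair, was 2.643, 0.9979 and 5.788 CPM in controls and 0.4579, 0.1808 and 0.2529 in mutants. Control 2 was lowest of the controls and still above every mutant. It fell by 3.38 (log2, SE 0.682, edgeR adjusted p = 0.00301).

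H2-Ab1, the beta chain that pairs with H2-Aa, did not move with the other class II genes. It was 8.706, 8.15 and 14.55 CPM in controls and 7.877, 10.58 and 10.37 in mutants, and the groups overlapped. Its log2 fold change was -0.14 (SE 0.231, edgeR adjusted p = 0.675).

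Of the 6 class I genes, 1 rose, 3 fell and 2 were not called in MPP. H2-K1, a heavy chain, was 260.7, 308.6 and 283.5 CPM in controls and 481.4, 325.7 and 334.2 in mutants. Every mutant was above every control, with mutant 1 standing apart. It rose by 0.41 (log2, SE 0.143, edgeR adjusted p = 0.0462). The other heavy chain, H2-D1, was 296.8, 368.8 and 335.5 CPM in controls and 442.4, 281.7 and 321.1 in mutants, and overlapped. Its log2 fold change was 0.05 (SE 0.151, edgeR adjusted p = 0.828).

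The proteasome subunits and the transporter fell. Psmb8 was 237.8, 272.1 and 238.9 CPM in controls and 205.4, 141.6 and 140.7 in mutants, and fell by 0.63 (log2, SE 0.142, edgeR adjusted p = 0.00555). Psmb9 was 76.48, 75.34 and 71.52 CPM in controls and 62.83, 41.4 and 45.86 in mutants, and fell by 0.59 (SE 0.143, edgeR adjusted p = 0.00854). In both genes mutant 1 was the highest mutant library but below every control. Tap1 was 63.58, 80.42 and 63.26 CPM in controls and 59.9, 37.25 and 47.29 in mutants, again with no overlap, and fell by 0.54 (log2, SE 0.165, edgeR adjusted p = 0.0269). The light chain B2m was 790, 729.5 and 603.3 CPM in controls and 690.1, 481.7 and 478.5 in mutants. Mutant 1 lay within the range of the controls, and the log2 fold change of -0.38 (SE 0.148) was not called (edgeR adjusted p = 0.0677).

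The calls of H2-Aa, H2-Eb1 and Cd74 held under 14 of 15 alternatives, including each library left out and only the control with Cre. The exception added each library's macrophage marker sum to the fit, with edgeR adjusted p of 1, 1 and 0.148 for the 3 genes and log2 fold changes of -3.60, -6.02 and -4.14. The size of the H2-Eb1 change moved more than its call, to -2.60 without MPP control 3 and -4.29 with only the control carrying Cre. The calls of H2-K1 and Tap1 changed with single libraries. H2-K1 lost its call without MPP control 1 (edgeR adjusted p = 0.131), control 2 (0.0558), control 3 (0.0679) or mutant 1 (0.138), and with upper-quartile scaling (0.0867), within a range of 0.0094 to 1 over its 15 alternatives. Tap1 lost it without MPP control 2 (0.121), mutant 2 (0.112) or mutant 3 (0.083), within 0.00572 to 1. Against only the MPP control that carries Cre, neither these (0.619 and 0.571) nor Psmb8 (0.366) or Psmb9 (0.41) were called, in a fit with 1 MPP control whose spread is taken from all groups. A joint fit of the 12 libraries called none of these 4 genes either, with edgeR adjusted p of 0.191 for H2-K1, 0.19 for Tap1, 0.0543 for Psmb8 and 0.0788 for Psmb9.

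Markers of cells that carry class II molecules moved with these genes in MPP. The counts of markers given here stand against 18.5% of all genes called lower and 16.5% called higher. Of 17 macrophage markers tested, 16 fell, and their sum was 993.5 to 1439 CPM in controls and 213.9 to 352.4 in mutants, with 0 of 18 listed markers at 0 in either group. B cell markers fell in 7 of 7 tested, from a sum of 91.53 to 122.2 CPM to 35.17 to 46.89. Cd79b alone made up 60.94 to 71.59 CPM of the sum in controls and 31.91 to 41.21 in mutants. Pax5, Igll1 and Ms4a1 did not pass the filter. Ms4a1 was at 0 in the mutants, and at 0.07773, 0 and 0.4134 CPM in controls. Dendritic cell markers fell in 6 of 8 tested and rose in 2. Those that rose were Zbtb46 by 0.72 (log2, edgeR adjusted p = 0.0468) and Clec10a by 1.11 (0.0189). Clec9a did not pass the filter, at 0.2481 to 0.6218 CPM in controls and 0 in the mutants. The sum of the dendritic cell markers went from 452.3 to 535.3 CPM to 225.6 to 293.9. Flt3, also a progenitor gene, made up 405.4 to 490.5 and 203.2 to 272.9 of it. Itgax, which encodes CD11c, was 5.489 to 8.161 CPM in controls and 0.6328 to 1.557 in mutants. Markers of other cells moved too. Hepatoblast markers fell in 3 of 8 (Trf, Afp and Ttr), with sums of 159 to 400.1 CPM in controls and 56.56 to 97.45 in mutants, and endothelial markers fell in 5 of 8 and rose in 1. Granulocyte and monocyte markers went in both directions. Of 10 tested, 3 fell (Ccr2, Lyz2 and Csf3r) and 4 rose, among them Elane. Their sums were 3184 to 4140 CPM in controls and 2698 to 3424 in mutants. The lineage-negative LSK gate is meant to exclude mature lineages, though which ones its antibodies covered was not examined here. Its own marker Ly6a also fell, as given above. Ctss, a class II processing protease that macrophages also express, was 96.99 to 126.5 CPM in controls and 16.54 to 19.78 in mutants. The part of any of these cells in the class II result was not tested, and the sum of the macrophage list separates the genotypes without overlap in MPP.

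**Figure D2:**
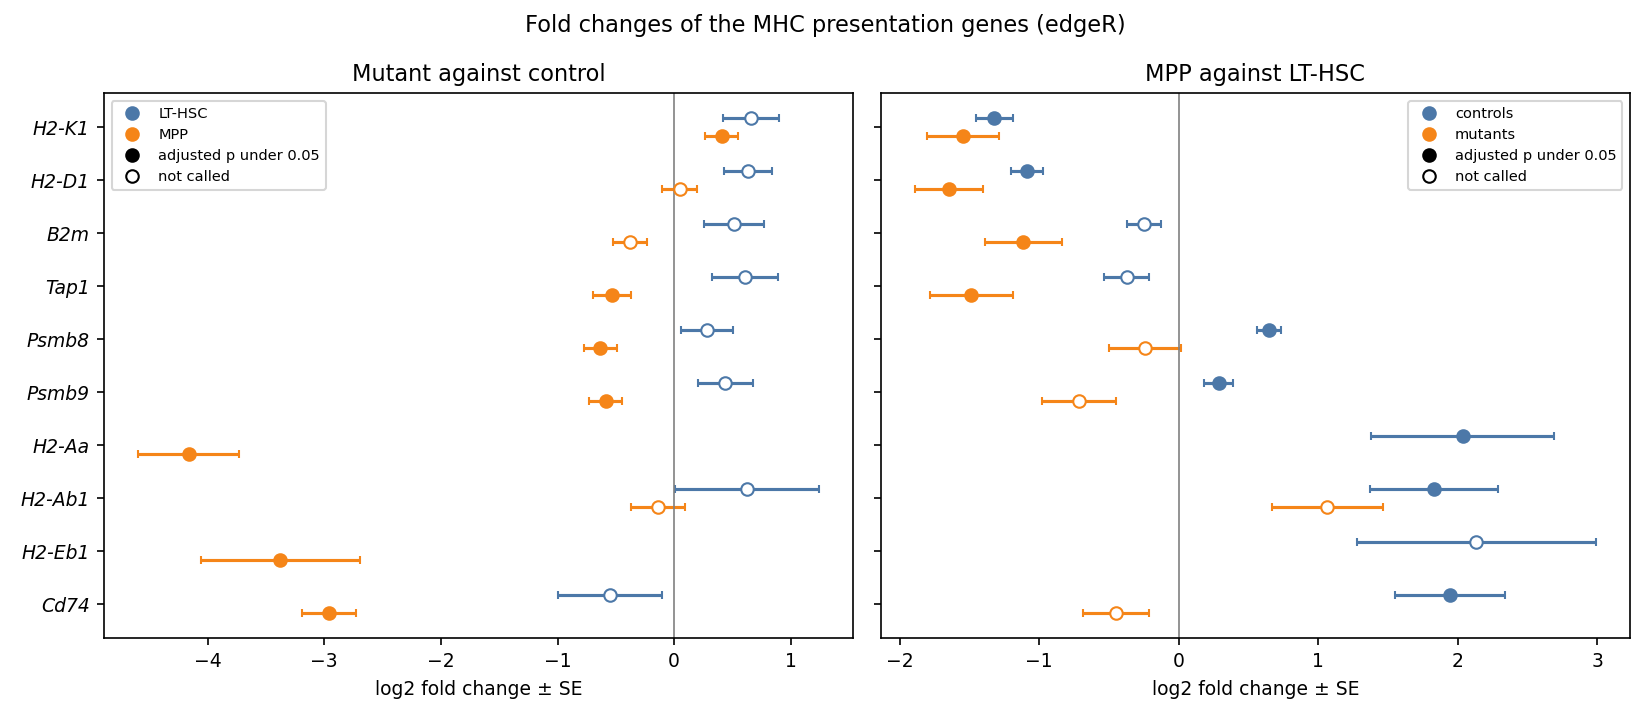
Log2 fold changes with SE from edgeR for the 10 genes, mutant against control on the left and MPP against LT-HSC on the right, with filled points for adjusted p under 0.05. In MPP the class II genes other than H2-Ab1 lie at -2.96 to -4.16, and class I genes lie between -0.63 and 0.41, whereas no gene was called in LT-HSC.

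In LT-HSC, none of the genes was called. Of the 10, 8 passed the filter, H2-Aa and H2-Eb1 did not, and 0 were called by edgeR, against 0.42% of all genes tested. By unadjusted p under 0.05, edgeR had 2 genes (H2-K1 and H2-D1), against 9.5% of all genes, and DESeq2 called 0 of the 8. None had groups that did not overlap, against 16.3% of all genes. All 6 class I genes had a positive fold change, with a median log2 fold change of 0.56 against 0.03 over all genes.

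H2-K1 was 796.2, 558.1 and 761.6 CPM in control LT-HSC and 1348, 1199 and 704.4 in mutants. Mutants 1 and 2 stood above every control, and mutant 3 lay among them. Its log2 fold change was 0.66 (SE 0.24, edgeR adjusted p = 0.441). H2-D1 had the same layout, 782.6, 597.5 and 735.8 CPM against 1300, 1156 and 733.5, with a log2 fold change of 0.63 (SE 0.206, edgeR adjusted p = 0.393).

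B2m was 899.2, 713.3 and 893.9 CPM in controls and 1325, 1452 and 699.4 in mutants, and Tap1 was 111.3, 70.77 and 84.44 against 145.6, 169.8 and 79.01. Mutant 3 was the lowest of the mutants for both. Log2 fold changes were 0.51 (SE 0.254, edgeR adjusted p = 0.581) for B2m and 0.61 (SE 0.286, edgeR adjusted p = 0.563) for Tap1. Psmb8 (158, 152.7 and 164.8 CPM against 207.9, 232.2 and 120.9) and Psmb9 (65.9, 54.79 and 61.2 against 89.39, 98.99 and 51.46) also had mutant 3 below every control. Their log2 fold changes were 0.28 (edgeR adjusted p = 0.743) and 0.44 (edgeR adjusted p = 0.613). Over the 6 class I genes, the mean deviation of log2 CPM from each gene's mean was 0.83 and 0.89 in LT-HSC mutants 1 and 2 and -0.03 in mutant 3, against 0.29, -0.08 and 0.19 in LT-HSC controls.

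Class II levels in LT-HSC were low and uneven. H2-Aa had counts of 2, 25 and 42 in controls and 4, 5 and 7 in mutants, and a fit with no low-count filter gave a log2 fold change of -1.89 (edgeR adjusted p = 0.629). H2-Eb1 had counts of 0, 11 and 18 in controls and 1, 1 and 0 in mutants, so the mutant level per library size was 0.0799 of the control level over the group (95% exact interval 0.00924 to 0.316, counting error only). Control 1 held almost none of either gene. Cd74 was 5.773, 16.5 and 21.5 CPM in controls and 11.91, 7.629 and 9.502 in mutants (log2 fold change -0.55, edgeR adjusted p = 0.749), and H2-Ab1 was 0.929, 3.461 and 4.436 against 3.533, 2.511 and 7.09 (0.62, edgeR adjusted p = 0.806). In both genes control 1 was the lowest control, and mutant values overlapped those of the controls.

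Class II and macrophage marker sums were not in the same order across the LT-HSC libraries. LT-HSC mutant 2 had a macrophage marker sum of 1688 CPM and a class II sum of 10.72, while LT-HSC mutant 1 had 97.44 and 15.86. LT-HSC control 1 had a macrophage marker sum of 1243 CPM and the lowest class II sum of the 12 libraries, 6.835. LT-HSC controls 2 and 3, at 1564 and 1797 CPM of macrophage markers, had 22.61 and 30.45. B cell marker sums were 52.29 to 65.69 CPM in LT-HSC controls and 39.54 to 53.89 in LT-HSC mutants, but Cd79b alone gave 47.12 to 60.53 and 36.25 to 50.6 of them, and Pax5, a B cell transcription factor, was at 0 in both groups. Dendritic cell marker sums were 145.7 to 163.8 CPM in controls and 60.07 to 97.14 in mutants, of which Flt3 gave 132.7 to 149.4 and 52.34 to 77.48. Itgax and Siglech were at 0 in mutants and at most 1.504 and 1.031 CPM in controls, and neither passed the filter. Hepatoblast marker sums were 392.1, 1455 and 1472 CPM in LT-HSC controls 1, 2 and 3, with control 1 lowest as for class II, and 52.19 to 378.8 in mutants. The part of these cells was not tested.

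**Figure D3:**
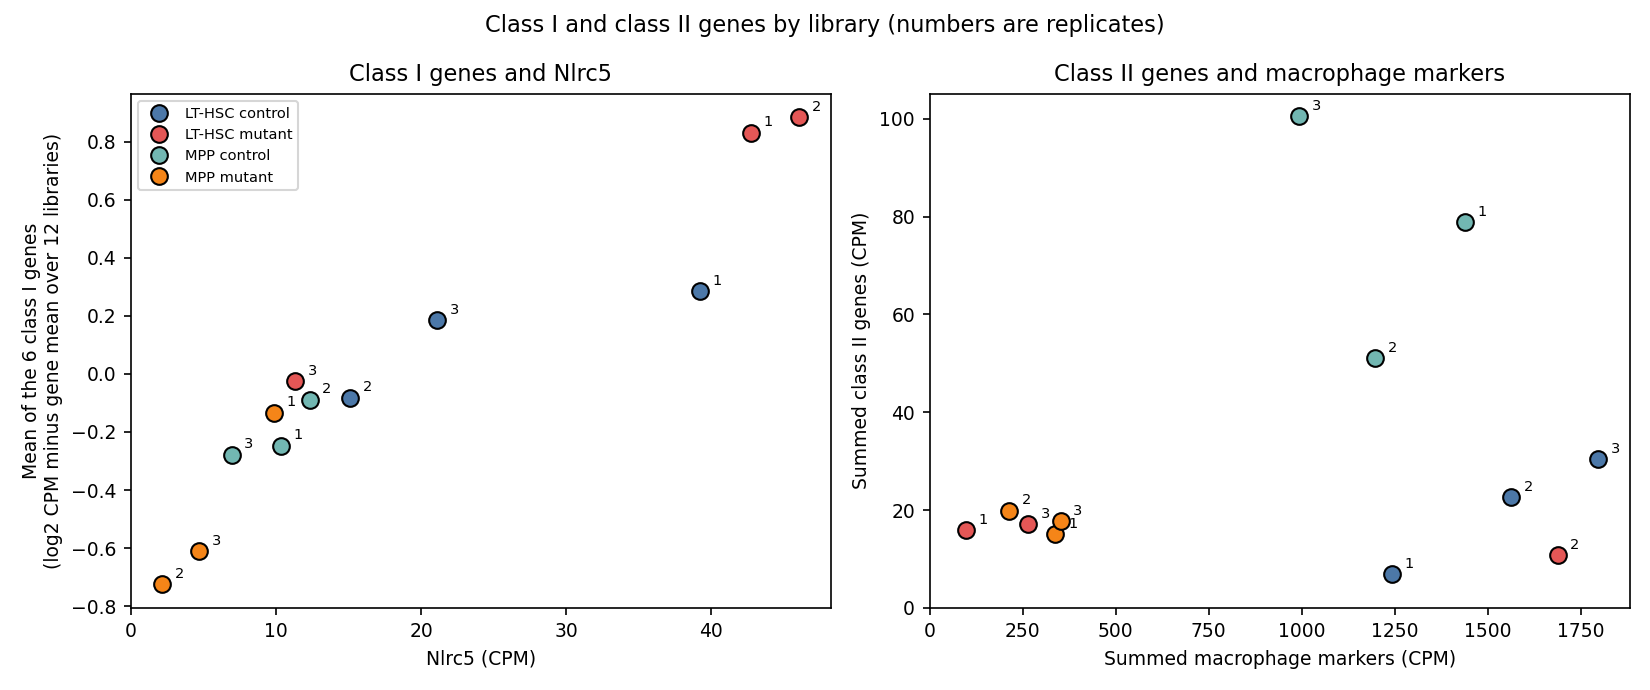
Left, the mean deviation of the 6 class I genes in log2 CPM against Nlrc5 in CPM, and right, the summed class II genes against summed macrophage markers in CPM, with 1 point per library and its replicate number. LT-HSC mutants 1 and 2 stand at 0.83 and 0.89 on the class I axis and 42.72 and 46.06 CPM of Nlrc5. On the right, the MPP mutants and LT-HSC mutants 1 and 3 lie together at low values.

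The difference between the genotype effects in the 2 cell types was tested with an interaction term over all 12 libraries. All 10 genes were tested and edgeR called 0, against 0.377% of all genes, with 5 genes at an unadjusted p under 0.05 against 12.4% of all genes. DESeq2 called Cd74 (DESeq2 adjusted p = 0.00153). With edgeR, Cd74 had an estimate of -2.35 (log2, MPP effect minus LT-HSC effect, SE 0.561, edgeR adjusted p = 0.0969). The other class II estimates were -2.23 for H2-Aa (edgeR adjusted p = 0.482), -0.71 for H2-Ab1 (0.767) and 0.10 for H2-Eb1 (0.981). The class I estimates were all negative, at -0.19 for H2-K1, -0.52 for H2-D1, -0.82 for B2m, -1.08 for Tap1, -0.85 for Psmb8 and -0.96 for Psmb9. The calls changed with LT-HSC mutant 3. Without that library, B2m (-1.08, edgeR adjusted p = 0.0139), Tap1 (-1.34, 0.0155), Psmb8 (-1.08, 0.00828), Psmb9 (-1.20, 0.00601) and Cd74 (-2.36, 0.0344) were called, while 885 genes of all those tested were called in place of 50. Over the 20 alternatives the edgeR and DESeq2 adjusted p ran from 0.0139 to 0.877 for B2m, 0.0155 to 0.825 for Tap1, 0.00828 to 0.844 for Psmb8, 0.00601 to 0.825 for Psmb9 and 0.00153 to 0.265 for Cd74.

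The 2 cell types differed in their controls, where 3 of 4 class II genes were higher in MPP and class I genes went in both directions. Comparing control MPP with control LT-HSC, all 10 genes passed the filter, 5 were higher and 2 lower in MPP, against 18% and 20.5% of all genes tested. Groups did not overlap for the same counts, 5 and 2, against 24.8% and 26.3% of all genes. The median log2 fold change was 1.99 for class II, with 3 genes called higher and 0 lower, and -0.31 for class I, with 2 higher and 2 lower, against -0.01 over all genes.

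H2-K1 and H2-D1 were lower in MPP, by log2 fold changes of -1.32 (SE 0.131, edgeR adjusted p = 5.71e-05) and -1.09 (SE 0.116, edgeR adjusted p = 9.2e-05), or 2.50-fold and 2.13-fold. B2m (-0.25, edgeR adjusted p = 0.123) and Tap1 (-0.37, edgeR adjusted p = 0.0945) were not called. Psmb8 was higher by 0.64 (SE 0.0861, edgeR adjusted p = 0.000349), and Psmb9 by 0.29 (SE 0.102, edgeR adjusted p = 0.0491). Among class II genes, Cd74 was higher by 1.94 (SE 0.392, edgeR adjusted p = 0.0037), H2-Ab1 by 1.83 (SE 0.459, edgeR adjusted p = 0.011) and H2-Aa by 2.04 (SE 0.656, edgeR adjusted p = 0.033). H2-Eb1 had 2.13 (SE 0.855, edgeR adjusted p = 0.0729). The call for Cd74 held under 15 of 15 alternatives, those of H2-K1, H2-D1 and Psmb8 under 14 and that of H2-Ab1 under 13. Psmb9 kept its call under 4 of 15 (edgeR and DESeq2 adjusted p 0.0398 to 0.595) and H2-Aa under 9 (0.00821 to 0.133).

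Leaving out single libraries changed several of these calls. H2-Aa lost its call without LT-HSC control 2 (edgeR adjusted p = 0.0666), MPP control 1 (0.113) or MPP control 3 (0.0875), and its log2 fold change was 2.83 without LT-HSC control 3. Psmb9 lost it without LT-HSC control 2 (0.18) or 3 (0.0827), or without MPP control 1 (0.0771), 2 (0.123) or 3 (0.0792). B2m gained a call without LT-HSC control 2 (edgeR adjusted p = 0.0492) and so did Tap1 (0.0329), and H2-Eb1 gained one without LT-HSC control 3 (0.0348). Macrophage markers ran the other way between these groups, with 2 of 17 higher and 9 lower in MPP, at sums of 993.5 to 1439 CPM against 1243 to 1797. Dendritic cell markers were higher in 6 of 8 and B cell markers in 5 of 7, and the part of these cells was not tested. These marker counts stand against 18% of all genes called higher and 20.5% called lower.

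Among mutants, MPP was compared with LT-HSC for 6 class I and 2 class II genes, since H2-Aa and H2-Eb1 did not pass the filter. Of these 8 genes, 4 were lower in MPP and 0 higher, against 14.9% and 7.98% of all genes. The same 4 genes had groups that did not overlap, against 22.1% of all genes lower. H2-K1 had -1.55 (SE 0.258, edgeR adjusted p = 0.00918), H2-D1 -1.65 (SE 0.245, edgeR adjusted p = 0.0067), Tap1 -1.49 (SE 0.298, edgeR adjusted p = 0.0153) and B2m -1.11 (SE 0.279, edgeR adjusted p = 0.0304). Psmb8 (-0.24, edgeR adjusted p = 0.51), Psmb9 (-0.71, edgeR adjusted p = 0.0927), Cd74 (-0.45, edgeR adjusted p = 0.2) and H2-Ab1 (1.07, edgeR adjusted p = 0.0935) were not called. H2-Ab1 was higher in every MPP mutant than in every LT-HSC mutant all the same, as 25% of all genes were. The H2-D1 call held in 14 of 14 alternatives. H2-K1 lost its call without MPP mutant 2 (0.0539) or 3 (0.0554), within 1.55e-07 to 0.0554 over the alternatives. Psmb9 and H2-Ab1 gained calls without LT-HSC mutant 3 (0.00569 and 0.00487). B2m lost its call without LT-HSC mutant 1 (0.0981) or 2 (0.0532) or MPP mutant 2 (0.129) or 3 (0.122), and Tap1 without LT-HSC mutant 1 (0.0569) or MPP mutant 2 (0.0727) or 3 (0.0729).

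The rest of the pathway is described by lists. In MPP mutants the 8 other class II genes tested (of 10 listed) gave 7 lower and 0 higher, against 18.5% and 16.5% of all genes, with a median log2 fold change of -1.22. Ctss (-2.69, edgeR adjusted p = 2.03e-07) and Lgmn, an endosomal protease (-1.74, 4.57e-05), fell with the smallest p, along with H2-DMa, which loads peptides onto class II (-1.52, 7.91e-05), and H2-Ob, a part of its inhibitor (-0.92, 0.00139). In LT-HSC mutants 0 of 8 were called, against 0.42% of all genes tested, with a median log2 fold change of -0.33. In control MPP 5 of 8 were higher than in control LT-HSC and 0 lower, against 18% and 20.5% of all genes, among them H2-DMa by 1.80 (2.78e-05).

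The class I pathway was counted in 4 lists. Of 3 immunoproteasome and activator genes, 3 fell in MPP mutants. The counts of each list stand against 18.5% of all genes lower and 16.5% higher. Those that fell were Psmb10 by 0.43 (log2, edgeR adjusted p = 0.00532), Psme1 by 0.42 (0.0028) and Psme2 by 0.40 (0.00412). Of 15 genes listed as constitutive proteasome, 5 rose and 0 fell. They were the activator Psme3 by 0.60 (0.00099) and Psmb4 by 0.41 (0.00481), Psma3 by 0.35 (0.0152), Psmb3 by 0.33 (0.0196) and Psma7 by 0.31 (0.0144), which are subunits that the immune form also contains. The catalytic subunits that the immune form replaces were not called, at 0.18 for Psmb5 (0.1), -0.01 for Psmb6 (0.928) and 0.21 for Psmb7 (0.124). Of 8 loading genes, 3 rose and 4 fell. The peptide editors Tapbp (-0.59, 0.000905) and Tapbpl (-0.77, 0.00128) were among those that fell, and the general chaperones Hspa5 (0.42, 0.00127) and Canx (0.35, 0.00531) among those that rose. Of 12 other heavy chain genes tested (24 listed), 5 fell and 0 rose. The 4 with the smallest p were class I-like molecules outside classical presentation: Fcgrt, a receptor for IgG (-2.64, 5.44e-05), Hfe of iron control (-1.70, 0.000155) and the lipid presenters Cd1d1 (-0.88, 0.000889) and Cd1d2 (-1.34, 0.00714). Of these genes only Fcgrt was called in LT-HSC, where 0.42% of all genes tested were called. Fcgrt fell by 1.35 there (edgeR adjusted p = 0.044), the only one called of 17 heavy chain genes tested.

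**Figure D4:**
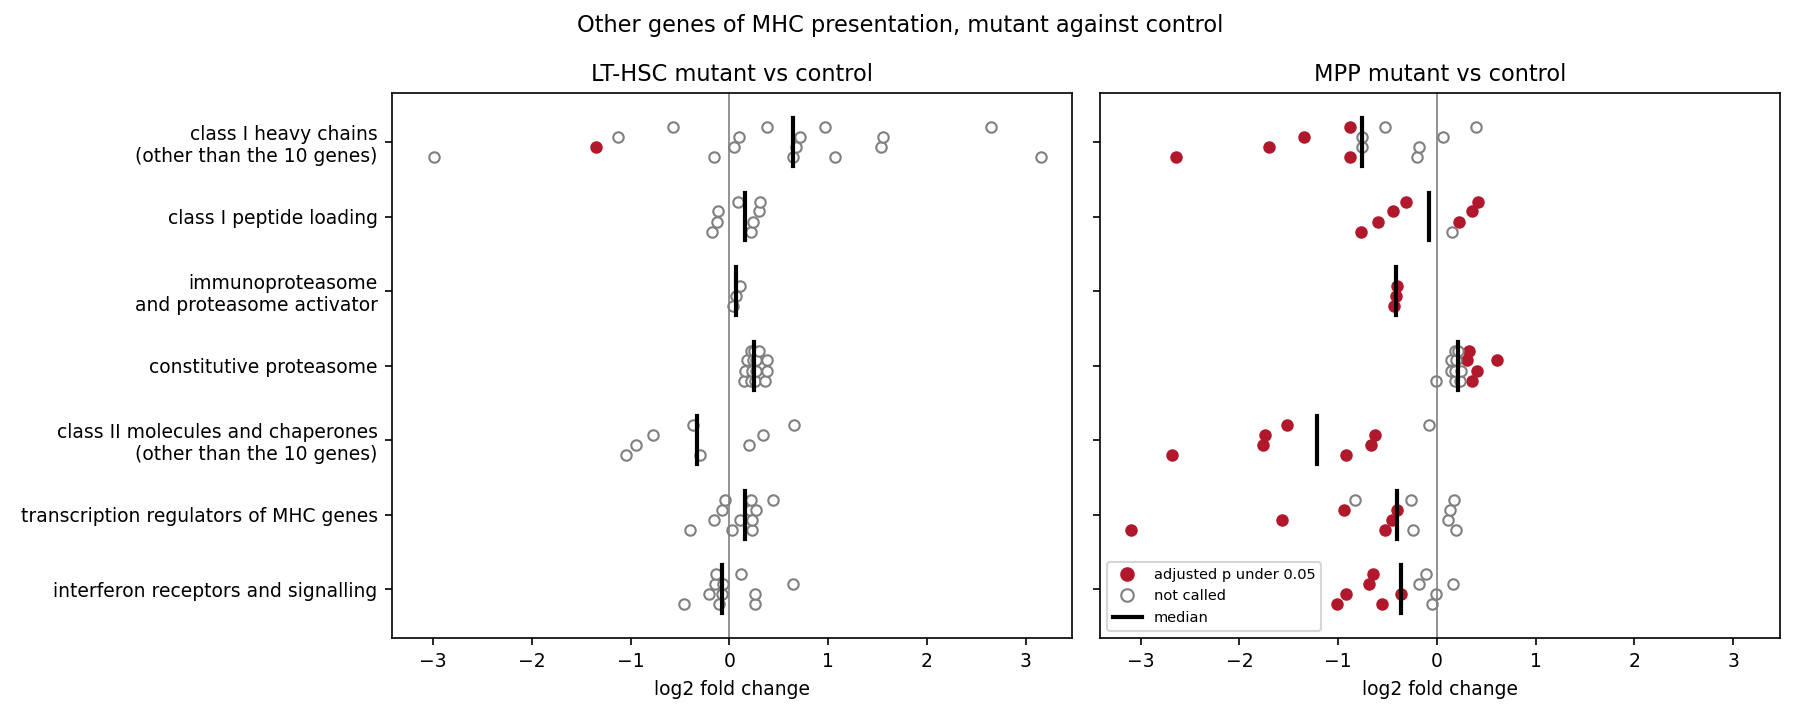
Log2 fold changes of the other genes of MHC presentation by list, LT-HSC on the left and MPP on the right, with filled points for adjusted p under 0.05 and a bar for the median of each list. In MPP the class II list lies to the left of 0 with a median of -1.22, while the constitutive proteasome list has a median of 0.21, with Psmb6 at -0.01.

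Among heavy chains tested in mutants, H2-Q5, H2-Q6, H2-Q7 and H2-Q9 differed most between cell types (log2 fold changes of -5.28 to -6.23, MPP against LT-HSC). H2-Q4 (-1.66) differed less than H2-T10 (-2.56). The non-classical heavy chain H2-Q7 was at 3.716, 2.577 and 2.707 CPM in control LT-HSC, and at 25.39, 21.44 and 8.405 in mutant LT-HSC, but only 0.1663 to 0.4664 in control MPP and 0.2712 to 0.6411 in mutant MPP. The 3 LT-HSC mutants were above every control, and mutant 3 was lowest. The fold change of 2.65 (log2, SE 0.43) was not called (edgeR adjusted p = 0.0663). Among the other Q genes tested in LT-HSC mutants, H2-Q4, H2-Q5, H2-Q6 and H2-Q9 had positive fold changes. H2-Q10 had a negative fold change (-2.99, edgeR adjusted p = 0.399), and none of these was called. H2-Q7 was lower in MPP than in LT-HSC among the controls (-3.07, edgeR adjusted p = 0.00062) and mutants (-5.28, edgeR adjusted p = 0.00244). The Q genes are related in sequence, so the deposited counts may share reads between them and each is uncertain. Reads of H2-K1 and H2-D1 were also shared with relatives: their counts were fractional in 12 of 12 libraries, as were those of H2-L and H2-K2, though H2-D1 had 4.64% of its 100-base words in other genes and H2-K1 0%.

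Among regulators, Ciita fell in MPP mutants and Nlrc5 was not called. Ciita was 0.855, 1.247 and 1.158 CPM in MPP controls and 0.1832, 0 and 0.1686 in mutants, without overlap, and fell by 3.10 (log2, SE 0.612, edgeR adjusted p = 0.00265). It was low in every library. Nlrc5 was 10.34, 12.31 and 6.946 CPM in MPP controls and 9.891, 2.17 and 4.721 in mutants (-0.83, edgeR adjusted p = 0.135). In LT-HSC it was 39.22, 15.1 and 21.13 in controls and 42.72, 46.06 and 11.33 in mutants (0.45, edgeR adjusted p = 0.841). The 3 libraries highest in Nlrc5, LT-HSC mutants 2 and 1 and LT-HSC control 1, were also the 3 highest in the class I mean, over 12 libraries that share groups and depth.

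Nlrc5 was lower in MPP than in LT-HSC in controls (-1.36, edgeR adjusted p = 0.00998) and in mutants (-2.60, edgeR adjusted p = 0.0327), and Ciita was higher in control MPP (2.84, edgeR adjusted p = 0.0106). Of 13 regulators tested in MPP mutants, 6 fell and 0 rose, against 18.5% and 16.5% of all genes. Irf1, an interferon-responsive activator of class I promoters, was 99.49, 117.3 and 102 CPM in controls and 65.12, 52.16 and 50.41 in mutants, and fell by 0.94 (edgeR adjusted p = 0.000158). Irf8, a factor of myeloid and dendritic lineages, fell by 1.57 (edgeR adjusted p = 1.84e-05). Rfx5, which binds the X box, was 30.39 to 36.71 CPM in controls and 24.5 to 30.41 in mutants (-0.27, edgeR adjusted p = 0.137). Of 11 interferon pathway genes, 6 fell and 0 rose against those same shares, among them the receptor Ifnar1 by 0.69 (edgeR adjusted p = 0.000278) and Irf9 by 0.93 (edgeR adjusted p = 0.000488). In LT-HSC, 0 of 12 regulators and 0 of 11 interferon genes were called, against 0.42% of all genes tested. Irf1 there was 98.61 to 104.6 CPM in controls and 57.16 to 90.54 in mutants (-0.39, edgeR adjusted p = 0.498). Its groups did not overlap, as for 16.3% of all genes in LT-HSC.

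The genes nearest to the class I mean profile, by root mean square difference of log2 CPM over 12 libraries among 13239 genes, were H2-T23 (0.17), Tctn2 (0.187), S1pr1 (0.202), Cnih2 (0.209) and Icam2 (0.211), against a median of 0.596. H2-T23 was 125.8 to 156.7 CPM in LT-HSC controls and 172.1 to 236.9 in LT-HSC mutants, 95.67 to 124.5 in control MPP and 87.75 to 102.8 in mutant MPP. Among those nearest to the class II mean were Cyp11a1 (0.479), Id2 (0.572), Blk (0.577) and Ptpro (0.6), against a median of 1.28. Id2 had means of 32.5 CPM in LT-HSC controls, 21.1 in LT-HSC mutants, 121 in MPP controls and 23.3 in MPP mutants. Cyp11a1, Blk and Cnih2 were low, with highest group means of 1.223, 1.428 and 1.175 CPM, so their likeness rests on few counts. Within the classes, B2m stayed closest to the mean of the rest of its class (0.118) and Psmb8 farthest (0.597), and among class II genes Cd74 was closest (0.538) and H2-Ab1 farthest (1.3).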

How the data were processed

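RNA was measured in 12 libraries of sorted cells. The labels' protocols give 500 to 1000 LT-HSC or 20000 MPP and 10 ng of RNA per library. The kit keeps no strand, so reads of overlapping genes cannot be told apart: in GENCODE, B2m shares 5398 bases with Patl2 (at most 1.353 CPM here), Psmb8 2139 with an antisense gene, H2-Eb1 2204 with an antisense gene, and Tap1 and Psmb9 212 with each other. STAR, RSEM and the mm10 build are named in the submitters' processing notes, with versions not given in the sources used here. Each deposited table lists an RSEM expected count for every gene, per the file headers, with 7.13% to 7.76% of values fractional. The deposited TPM values, per the file headers, served only to compare genes with each other.

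Expected counts were rounded and tested with edgeR 4.0.16 in R 4.3.3 (TMM, filterByExpr with a minimum count of 10 and a total of 15, quasi-likelihood test, Benjamini-Hochberg over all genes tested, threshold 0.05), separately for each pair of groups, with an interaction contrast over 12 libraries. The scripts were tested on simulated data. Genes were named by rule: the 10 members, up to 4 called genes of smallest p in each list, Ciita, Nlrc5, Irf1 and Rfx5, and the 5 genes nearest each class profile, of which some that the rule names are not reported here. H2-L and H2-K2 (shared reads), H2-Q4, H2-Q9, H2-Q10 and H2-T10, the markers Zbtb46, Clec10a and Igll1, and marker genes at 0, were named after their values were seen. The members and lists were chosen with earlier results of these data known. Alternatives were other normalizations, DESeq2 1.42.0, no filter, truncated counts, left-out libraries, a replicate block, joint fits, controls with Cre only and a macrophage-sum covariate. Replicate numbers are in the titles, with no label saying what a number stands for. In LT-HSC, deviations from group means correlated weakly between same-numbered libraries (0.108, 0.147 and 0.175), against -0.202 to 0.0558 for unlike numbers. With 3 libraries per group this cannot show a shared origin. The block changed no call of the genes there. Promoters came from RefSeq's table for GRCm38.p6.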

Additional observations from a re-analysis of the deposited data

How the results depend on the processing

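The depth limits H2-Aa and H2-Eb1 most, since their mutant libraries held 0 to 7 counts. Of 732 alternative values for single genes, 642 kept direction and side of the threshold, 54 lost the threshold, 22 gained it and 14 changed sign. The counts of genes called moved as follows. In LT-HSC, 54 became 260 with DESeq2, 250 in the joint fit, 23 with the macrophage covariate and 13 to 102 with a library left out (13 without control 3, 102 without mutant 2). In MPP, 4337 became 2792 in the joint fit, 125 with only the control carrying Cre, 12 with the macrophage covariate and 2774 to 4756 with a library left out. Control MPP against control LT-HSC gave 4942, or 327 with Cre-carrying controls only. Mutant MPP against mutant LT-HSC gave 2845, or 4729 in the joint fit and 582 to 5087 with a library left out (582 without MPP mutant 2, 5087 without LT-HSC mutant 3). The interaction gave 50 (20 higher, 30 lower), or 334 with DESeq2, 87 with no filter, 84 with the macrophage covariate, 41 with upper-quartile scaling (11 higher, 30 lower), 1 to 885 with a library left out, and 0 with edgeR with Cre-carrying controls only, where 829 genes had an unadjusted p under 0.05. Fits with Cre-carrying controls have fewer controls, and the cause of the other shifts was not tested.

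In MPP the sign changed for H2-D1 with upper-quartile scaling (log2 fold change -0.0101) and with a library left out (-0.15 to 0.19, negative without control 1, -0.03, and without mutant 1, -0.15), for H2-Ab1 without control 3 (0.18, range -0.28 to 0.18), and with the macrophage covariate for B2m (0.60), Tap1 (0.49) and Psmb9 (0.26). B2m gained a call with upper-quartile scaling, DESeq2, the block, and without control 3 (edgeR adjusted p = 0.0267) or mutant 1 (0.00486), within 0.00486 to 1. The H2-Eb1 interaction changed sign with Cre-carrying controls (-0.29) and with a library left out (-0.74 to 0.87).

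With the replicate block the counts were 48 in LT-HSC, 3765 in MPP, 4881 for control cell types, 3032 for mutant cell types and 53 for the interaction. In MPP and between cell types the same-numbered libraries did not all deviate together (correlations -0.0245, -0.212 and -0.177 in MPP). With 3 libraries per group, such correlations cannot show whether same-numbered libraries share an origin. In MPP, H2-K1 and Tap1 lost their calls in that fit (edgeR adjusted p 0.0913 and 0.0522).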

Other observations

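H2-L, a heavy chain of some mouse strains that is close in sequence to H2-D1, had 10.97 to 23.96 CPM in LT-HSC controls, 22 to 33.51 in LT-HSC mutants, 4.353 to 11 in control MPP and 7.413 to 11.45 in mutant MPP. H2-Ea-ps, the alpha chain pseudogene that would pair with H2-Eb1, had 0 counts in all 12 libraries.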
